A study of Homo sapiens with 4 samples.

Results

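The enzymes that modify and cross-link collagen were examined as a group of 10 genes, taken by symbol from the table of raw counts: the prolyl 4-hydroxylase subunits P4HA1, P4HA2 and P4HB, the lysyl hydroxylases PLOD1, PLOD2 and PLOD3, and the lysyl oxidases LOX, LOXL1, LOXL2 and LOXL4. Each symbol had 1 row, and the 10 genes were analysed within the 12912 genes of the table. The libraries came from 786-O, a clear cell renal carcinoma line without functional VHL, cultured in RPMI1640 with serum. The 786-O-Ctrl group (labelled wild type and VHL-null, 2 libraries) was compared with the 786-O-VHL group (VHL restoration, 2 libraries), in which HA-tagged VHL is expressed from a retroviral pBabe-puro vector. Both groups carry the cell line label 786-OTR, in which TR stands, by the study's methods, for a triple reporter of GFP, luciferase and thymidine kinase. Each group stands for 1 subline, whether these were clones or pools is not given in the sources used here, and nothing states that the libraries of a group came from separate cultures. The p-values therefore set each difference against the spread between these libraries only, and not against a spread between sublines. The comparison asks how mRNA differed once VHL was restored.

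Collagen chains are modified in the endoplasmic reticulum before they are secreted. Prolyl 4-hydroxylases hydroxylate prolines, which stabilizes the collagen triple helix, and lysyl hydroxylases hydroxylate lysines, which serve as sites for glycosylation and for stable cross-links. Both are dioxygenases that use oxygen, iron, 2-oxoglutarate and ascorbate, like the enzymes that mark HIF subunits for recognition by VHL. Lysyl oxidases are copper-dependent enzymes that act outside the cell, where they oxidize lysines and hydroxylysines of collagen and elastin so that cross-links can form. Several of these genes are known to be induced by hypoxia, and in the kidney they are best known from fibrosis and from the matrix of tumors.

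A RefSeq promoter (build GRCh38.p14) was found for 9 of the 10 genes, all but LOXL2. The 250 bases before the annotated start were searched for ACGTG and GCGTG on both strands. These letters are the forms of the core of the hypoxia response element, the site bound by HIF with ARNT. The sequences of 4 genes are shown because they span the outcomes described below: PLOD2 and P4HA1 are hypoxia-inducible hydroxylases, PLOD1 had the largest fall among the well-counted genes, and LOX did not pass the test. Capitals mark each ACGTG or GCGTG on the printed strand and each CACGT or CACGC where the match lies on the other strand.
PLOD2, chr3:146161185-146161434, minus strand: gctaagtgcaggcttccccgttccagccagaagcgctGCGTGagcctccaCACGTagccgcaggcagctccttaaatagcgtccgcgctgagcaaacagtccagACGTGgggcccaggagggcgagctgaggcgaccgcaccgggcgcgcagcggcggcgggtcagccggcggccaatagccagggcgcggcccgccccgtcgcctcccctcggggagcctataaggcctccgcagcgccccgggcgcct
PLOD1, chr1:11934467-11934716, plus strand: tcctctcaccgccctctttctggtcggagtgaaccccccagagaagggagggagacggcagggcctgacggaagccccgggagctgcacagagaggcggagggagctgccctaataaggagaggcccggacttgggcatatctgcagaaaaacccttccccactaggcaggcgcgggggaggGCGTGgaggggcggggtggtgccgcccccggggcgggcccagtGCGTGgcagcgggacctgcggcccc
P4HA1, chr10:73096867-73097116, minus strand: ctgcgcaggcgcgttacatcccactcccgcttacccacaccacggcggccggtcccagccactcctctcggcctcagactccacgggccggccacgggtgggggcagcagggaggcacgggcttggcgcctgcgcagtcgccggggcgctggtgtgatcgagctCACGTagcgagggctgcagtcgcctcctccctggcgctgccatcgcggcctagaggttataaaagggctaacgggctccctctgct
LOX, chr5:122078260-122078509, minus strand: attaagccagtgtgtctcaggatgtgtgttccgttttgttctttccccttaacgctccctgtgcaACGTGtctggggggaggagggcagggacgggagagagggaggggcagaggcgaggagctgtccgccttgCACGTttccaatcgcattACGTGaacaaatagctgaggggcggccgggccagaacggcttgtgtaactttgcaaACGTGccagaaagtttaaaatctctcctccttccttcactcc
PLOD2 held 2 ACGTG and 1 GCGTG, P4HA1 held 1 ACGTG, PLOD1 held 2 GCGTG, and the LOX promoter at its most upstream start held 4 ACGTG. The other 2 LOX windows held 1 ACGTG and 1 GCGTG each, and P4HB held 1 GCGTG. Neither set of letters was found in the windows of P4HA2, PLOD3, LOXL1 and LOXL4. Over all 35116 promoter windows of the table, 18.5% held ACGTG, 32.2% held GCGTG and 43.2% held at least 1 of them. None of the ACGTG matches in these 9 genes lay within CACGTG, a motif of other helix-loop-helix factors that 6.34% of all windows held. A match describes the letters of the window and not a bound site. The genes that fell include genes with a match, genes without one and LOXL2, for which no window was searched. A relation between the letters and the fall was not tested.

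The deposited counts summed to between 2807779 and 22141263 per library, with 786-O-VHL replicate 1 the shallowest. Levels are given as CPM, the count scaled to the library total after TMM adjustment. Where no read was counted, the limit of 3 counts equals 0.142 to 1.02 CPM depending on the library, for counting error only. Because the 2 control columns bear 1 replicate number in the table, they are distinguished here by depth. VHL itself was at 42.9 and 43.9 CPM in the control libraries and, after VHL restoration, at 178 and 163 CPM (log2 fold change 1.96, SE 0.0706, edgeR FDR = 2.86e-19). All 8 renal carcinoma line markers (PAX8, PAX2, LHX1, CDH2, VIM, KRT8, KRT18 and CDH6) were counted in every library, and they summed to between 3515 and 3530 CPM in 786-O-Ctrl and between 2189 and 2301 CPM in 786-O-VHL. Most of the lower sum came from VIM, with 1668 and 1699 CPM in the control libraries against 751 and 709 CPM. KRT8 was also lower after VHL restoration, at 477 and 541 CPM against 769 and 741 CPM. PAX8 was lower as well, at 166 and 137 CPM against 277 and 272 CPM. PAX2 and KRT18 were lower in either restored library than in the control libraries, and the groups overlapped in LHX1. CDH2 was at 351 and 379 CPM after VHL restoration against 392 and 391 CPM in the control libraries. CDH6 was higher after VHL restoration, at 366 and 251 CPM against 219 and 215 CPM. Of 7 fibroblast markers 4 were analysed, and they summed to between 12.1 and 13.3 CPM in 786-O-Ctrl and between 16.3 and 17.3 CPM in 786-O-VHL. The 1 leukocyte marker analysed reached at most 1.02 CPM, and the 3 endothelial markers analysed summed to at most 1.33 CPM in any library. The mitochondrial share of counts was between 2.46% and 2.62% in 786-O-Ctrl and between 1.79% and 1.98% in 786-O-VHL. With all libraries thinned to the depth of the shallowest, 8 of the 10 genes were still lower, and LOXL4 could not be tested. Over all 10816 genes tested after thinning, 2855 were lower and 2823 were higher. PLOD1, P4HB and P4HA1 then had log2 fold changes of -0.85, -0.80 and -0.57. The part of the marker levels and of the mitochondrial share in the results was not tested, and fewer cells of a kind and less RNA per cell cannot be told apart in these bulk libraries.

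With a threshold of 0.05 on the edgeR FDR, 9 of the 10 genes were lower after VHL restoration and 0 were higher (also 0 at an unadjusted p under 0.05, and 0 with DESeq2). Among all 12335 genes tested, 31.9% were lower and 32.6% were higher by the same rule, 64.5% in all. In all 10 genes the restored libraries both lay below the control libraries, which was the case for 39.2% of all genes tested, while 40.8% had them both above. The median log2 fold change of the 10 genes was -0.67, beside 0.02 over all genes tested. The genes were chosen as a family with earlier results of these data known, and no test was made over the group. With 2 libraries against 2, a two-sided exact permutation test cannot give a p under 0.333, so the FDR values rest on the spread that edgeR shares between genes.

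**Figure D1:**
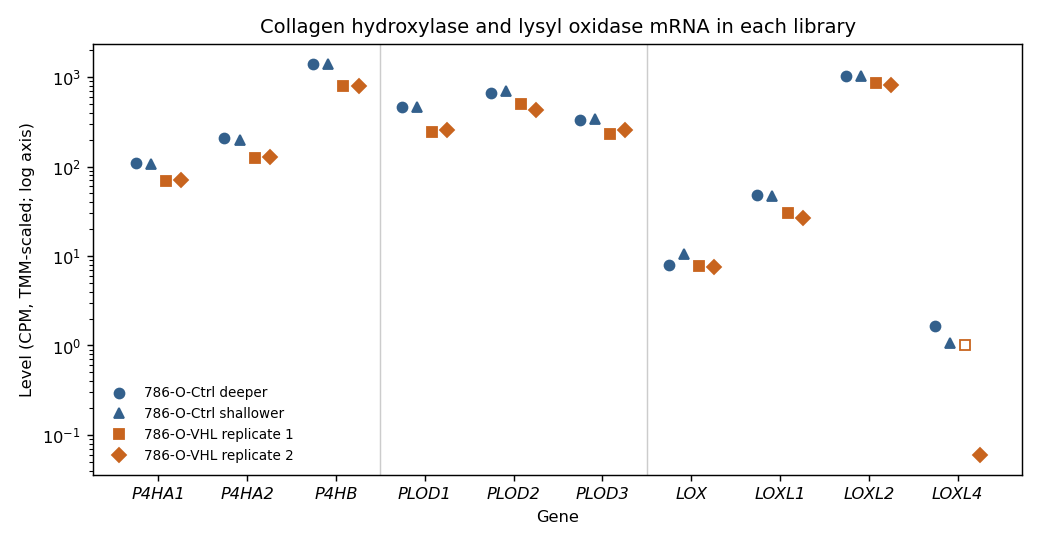
Level of each gene (x axis) in each of the 4 libraries (y axis, TMM-scaled CPM on a log axis), with blue for 786-O-Ctrl, orange for 786-O-VHL and gray lines between the 3 families; the open square for LOXL4 stands at 1.02 CPM, the limit that a count of 0 allows in 786-O-VHL replicate 1. Both orange points lie below both blue points in the prolyl 4-hydroxylases and lysyl hydroxylases, while the 8.02 CPM of LOX in the deeper control library lies next to the 7.80 CPM of 786-O-VHL replicate 1.

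The 3 prolyl 4-hydroxylase genes all fell in 786-O-VHL. P4HA1 (ENSG00000122884.12, chromosome 10 of GRCh37, the build of all gene positions here, from 74766975 to 74856732, minus strand) encodes a catalytic alpha subunit of the enzyme. P4HA1 mRNA was at 110.1 and 106 CPM in the 786-O-Ctrl libraries and at 69.2 and 69.9 CPM in the 786-O-VHL libraries. The libraries of each group lay close together and far from those of the other group, and P4HA1 fell by 35.6%, with a log2 fold change of -0.64 (SE 0.0703, edgeR FDR = 6.94e-09). P4HA2 (ENSG00000072682.18, chromosome 5 from 131525840 to 131631008, minus strand) encodes the other widely expressed alpha subunit. It was at 208 and 199.7 CPM in the control libraries and, after VHL restoration, at 123 and 126 CPM (log2 fold change -0.70, SE 0.0656, edgeR FDR = 2.6e-10). P4HB (ENSG00000185624.15, chromosome 17 from 79801035 to 79818732, minus strand) encodes the beta subunit, which is also protein disulfide isomerase and so serves the folding of many proteins besides collagen. It was at 1414 and 1392 CPM in the control libraries and, after VHL restoration, at 789 and 794 CPM (log2 fold change -0.83, SE 0.059, edgeR FDR = 9.1e-13). The 95% intervals of the log2 fold change were -0.78 to -0.49 for P4HA1, -0.84 to -0.57 for P4HA2 and -0.95 to -0.71 for P4HB. These intervals overlap, and the differences between the 3 genes were not tested.

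The 3 lysyl hydroxylases also fell, with log2 fold changes between -0.89 and -0.45. PLOD1 (ENSG00000083444.17, chromosome 1 from 11994262 to 12035595, plus strand) encodes the enzyme that acts mainly on the helical part of collagen and is mutated in a kyphoscoliotic form of Ehlers-Danlos syndrome. PLOD1 mRNA was at 466 and 457 CPM in the control libraries and, after VHL restoration, at 241 and 254 CPM, 1.85-fold lower by the fit, with a log2 fold change of -0.89 (SE 0.0629, edgeR FDR = 7.45e-13). This was the lowest log2 fold change among the 9 genes other than LOXL4, and 9.56% of all genes tested had a lower one. PLOD2 (ENSG00000152952.12, chromosome 3 from 145752926 to 145881512, minus strand) encodes the enzyme that hydroxylates the telopeptides, the ends of the chains that enter stable cross-links. It was at 656 and 690.2 CPM in the control libraries and, after VHL restoration, at 496 and 431 CPM, and its 786-O-VHL libraries stood further apart than those of PLOD1. The log2 fold change of PLOD2 was -0.55 (SE 0.0664, edgeR FDR = 3.29e-08), staying between -0.64 and -0.45 when any 1 library was omitted. PLOD3 (ENSG00000106397.12, chromosome 7 from 100849258 to 100861701, minus strand) encodes the enzyme that also transfers sugars to hydroxylysine. It was at 331 and 335 CPM in the control libraries and, after VHL restoration, at 228 and 253 CPM (log2 fold change -0.45, SE 0.0647, edgeR FDR = 6.07e-07). The 95% interval of PLOD1, -1.02 to -0.76, did not overlap those of PLOD2, -0.69 to -0.42, and of PLOD3, -0.59 to -0.32, but the difference between the genes was not tested in that fit.

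The lysyl oxidases spanned the smallest and the largest fitted differences of the 10 genes. LOXL2 (ENSG00000134013.15, chromosome 8 from 23154410 to 23282841, minus strand), which cross-links type IV collagen of basement membranes among other substrates, had the highest level per kilobase of exon among them, as given below. LOXL2 mRNA was at 1035 and 1018 CPM in the control libraries and, after VHL restoration, at 848 and 811 CPM. The groups did not overlap, and LOXL2 fell by 19.4%, with a log2 fold change of -0.31 (SE 0.0593, edgeR FDR = 4.67e-05). LOXL1 (ENSG00000129038.16, chromosome 15 from 74218330 to 74244478, plus strand), known from the maintenance of elastic fibers, was at 48.4 and 46.3 CPM in the control libraries and, after VHL restoration, at 30.5 and 26.7 CPM. Its log2 fold change was -0.78 (SE 0.0975, edgeR FDR = 6.11e-08). LOX (ENSG00000113083.14, chromosome 5 from 121398890 to 121414108, minus strand), the founding member of the family, had 169 and 160 counts in the control libraries, against 23 and 128 with VHL restored. These correspond to 8.02 and 10.6 CPM against 7.80 and 7.60 CPM, so that the 786-O-Ctrl libraries differed from each other by more than the lower of them did from 786-O-VHL. The difference in LOX did not pass the test (log2 fold change -0.27, 95% interval -0.67 to 0.13, edgeR FDR = 0.234), and without the shallower control library it was -0.07.

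LOXL4 (ENSG00000138131.4, chromosome 10 from 100007447 to 100027951, minus strand), a lysyl oxidase with scavenger receptor domains like LOXL2, was near the limit of detection. The deeper control library held 35 counts of LOXL4 and the shallower one 16, whereas 786-O-VHL replicate 1 held 0 and replicate 2 held 1. At the rate of 786-O-Ctrl, 4.16 counts would be predicted in replicate 1 and 23.8 counts in replicate 2, so the deeper of these libraries carries most of the comparison. The summed counts of 51 and 1 gave a ratio of 786-O-VHL to 786-O-Ctrl of 0.0358, with an exact 95% interval of 0.000889 to 0.209 that covers counting error only (edgeR FDR = 6.68e-05). LOXL4 entered the test only through its counts in 786-O-Ctrl, and it was the 1 gene of the 10 past a |fold change| of 4 with an FDR under 0.01, in a direction in which 1.54% of all genes tested passed that threshold, or 4.46% in either direction. Without 786-O-VHL replicate 2 its FDR was 0.0453.

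**Figure D2:**
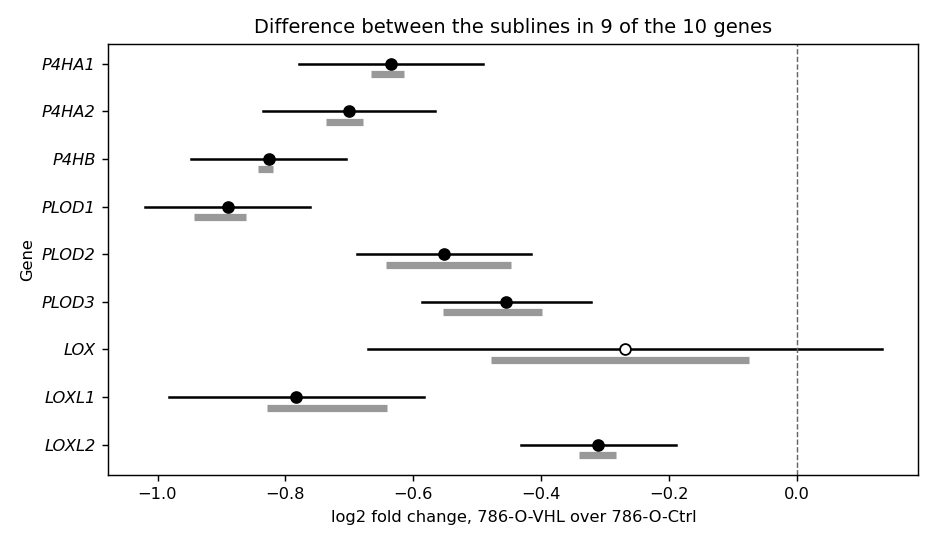
Log2 fold change of 786-O-VHL over 786-O-Ctrl (x axis) for 9 of the genes (y axis), with 95% intervals as black lines, the range with each library left out in turn as gray bars, and filled circles for an edgeR FDR under 0.05; LOXL4, which had 1 count in 786-O-VHL, is not drawn. In 8 genes the whole interval lies below 0, with estimates between -0.89 in PLOD1 and -0.31 in LOXL2, and the interval of LOX crosses 0.

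Annotated exons of other genes cover part of some of these genes, and the use of strand in counting is not given in the sources used here. On the same strand, ENTPD4 shares 2.01% of the exon bases of LOXL2. On the opposite strand, SRFBP1 shares 2.47% of those of LOX and ZNHIT1 shares 1.8% of those of PLOD3. LOXL1-AS1 shares 9.21% of those of LOXL1, P4HA2-AS1 shares 5.41% of those of P4HA2 and LOXL2-AS1 shares 2.97% of those of LOXL2. Annotated genes without a symbol share 4.75% of those of P4HB, 4.23% of those of LOXL4 and 1.52% of those of P4HA1. Reads from these stretches may have been counted on either gene or on none.

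Levels of different genes were compared as CPM per kilobase of annotated exon. With the length of all annotated exons of a gene joined, LOXL2 stood first in 786-O-Ctrl with 171 ± 1.94 CPM per kilobase (SD, n = 2), followed by P4HB with 126 ± 1.37. PLOD1, PLOD3 and PLOD2 followed with 86.7 ± 1.18, 58.7 ± 0.593 and 46.4 ± 1.69 CPM per kilobase. P4HA1 with 35.0 ± 0.877, P4HA2 with 20.1 ± 0.562, LOXL1 with 13.02 ± 0.402, LOX with 1.67 ± 0.329 and LOXL4 with 0.379 ± 0.118 CPM per kilobase came last. The order in 786-O-VHL was the same, from 139 ± 4.32 CPM per kilobase (SD, n = 2) in LOXL2 to 1.38 ± 0.0254 in LOX and 0.00825 ± 0.0117 in LOXL4, and in no group did the libraries of neighboring genes in this order overlap. The choice of length sets part of the order. With the length of the canonical transcript, a choice made after the data were seen, P4HB stood first in 786-O-Ctrl with 576 ± 6.24 and LOXL2 second with 276 ± 3.11 CPM per kilobase (SD, n = 2 each), PLOD2 stood above PLOD1, and P4HA2 stood above P4HA1. On that scale PLOD3 and PLOD1 did not differ beyond their spread in 786-O-VHL, at 85.2 ± 6.21 and 83.1 ± 3.13 CPM per kilobase (SD, n = 2 each).

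Sums and shares within a family cover only its members among the 10 genes, without P4HA3 and LOXL3. For the prolyl 4-hydroxylases they cover the alpha subunits P4HA1 and P4HA2 only, without P4HB. Between the group means, the difference in summed per-length level was -36.8% for P4HA1 and P4HA2, -37.02% for the lysyl hydroxylases and -20.8% for the 4 lysyl oxidases. Among the lysyl hydroxylases, PLOD1 made up 45.8% and 44.6% of the family level in the control libraries, against 37.9% and 39.1% after VHL restoration. PLOD3 made up 30.5% and 30.7% in the control libraries, against 33.6% and 36.5% after VHL restoration, so the libraries of the groups did not overlap for either gene. The share of PLOD2 was 23.6% and 24.7% in the control libraries, against 28.5% and 24.3% after VHL restoration, and here the groups overlapped. P4HA1 made up 63.5% and 63.6% of the sum of P4HA1 and P4HA2 in the control libraries, against 64.8% and 64.4% after VHL restoration, a difference of 1.11 percentage points between the group means. LOXL2 made up 91.9% of the 4 lysyl oxidases in either control library, against 93.5% and 94.0% after VHL restoration. For these shares the exact two-sided permutation p was 0.333, the smallest this design allows, except for PLOD2 with an exact p of 0.667. With canonical transcript lengths P4HA1 made up 46.8% and 48.0% of that sum as group means, and PLOD2 made up 39.7% and 42.3% of the lysyl hydroxylases.

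**Figure D3:**
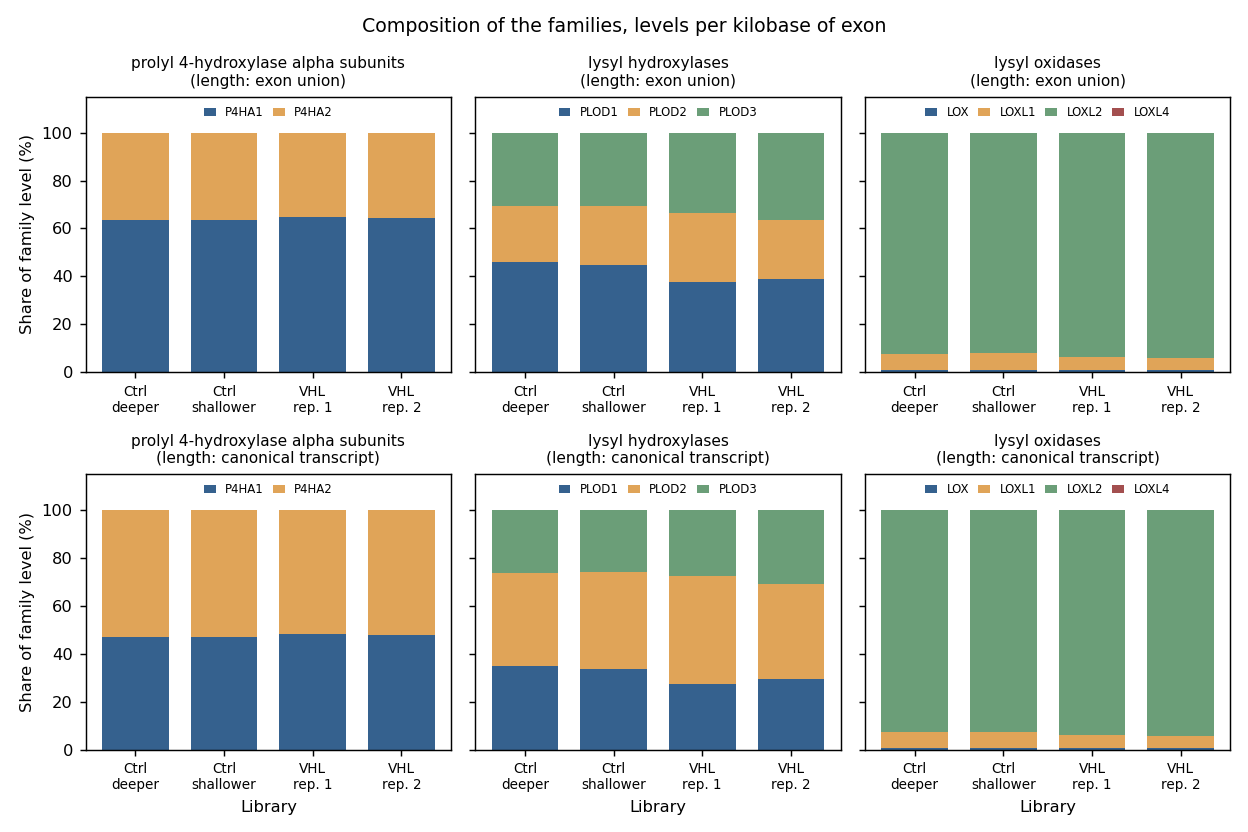
Share of each gene (colors) in the summed per-kilobase level of its family's members among the 10 genes (y axis, percent) in each library (x axis), with the joined length of all annotated exons in the upper panels and the canonical transcript length in the lower panels. PLOD1 has smaller shares with VHL restored than in the control libraries at either length, and LOXL2 takes at least 91.9% of the sum of LOX, LOXL1, LOXL2 and LOXL4 throughout.

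A further alpha subunit and a further lysyl oxidase, neither among the 10 genes, rose. P4HA3, the alpha subunit, had 14 and 9 counts in the control libraries, against 12 and 88 with VHL restored, which gave 0.631 ± 0.0471 and 4.65 ± 0.817 CPM (SD, n = 2 each). Its summed rate was 7.93 times as high in 786-O-VHL, with an exact 95% counting interval of 5.003 to 13.1 (edgeR FDR = 5.04e-08). P4HA3 entered the test only through its counts in 786-O-VHL. LOXL3, the lysyl oxidase most like LOXL2 and LOXL4 in its domains, rose from 3.88 ± 0.0528 to 10.7 ± 1.23 CPM (SD, n = 2 each) with a fitted log2 change of 1.52 (SE 0.204, edgeR FDR = 2.15e-07). With all libraries thinned to the depth of the shallowest, the log2 fold change of LOXL3 was 0.77 and did not pass (edgeR FDR = 0.0793).

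Other genes of collagen biosynthesis were taken from 9 lists. The counts for each list stand beside 31.9% lower and 32.6% higher, 64.5% in all, among all genes tested at the same FDR, and nothing particular to a list is read from them. Of the 8 other collagen hydroxylases and their partners, 5 were lower and 3 were higher at an edgeR FDR under 0.05, with a median log2 fold change of -0.29. P3H3 and P3H1, which belong to the prolyl 3-hydroxylase family, fell with log2 fold changes of -1.21 (SE 0.0698, edgeR FDR = 8.7e-15) and -0.99 (SE 0.0656, edgeR FDR = 1.89e-13). P4HTM, a transmembrane prolyl hydroxylase related to the collagen enzymes that acts on HIF in experiments, rose by a log2 fold change of 0.56 (edgeR FDR = 5.26e-06). Of the 3 genes for hydroxylysine glycosylation and its partners, 1 was lower and 0 were higher, and 0 were higher at an unadjusted p under 0.05 as well. This was COLGALT1, the main galactosyltransferase of hydroxylysine, which fell from 650.4 ± 10.9 to 257 ± 27.4 CPM (SD, n = 2 each) with a fitted log2 change of -1.32 (SE 0.0679, edgeR FDR = 7.61e-16).

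Of the 10 genes for collagen folding and export, 5 were lower and 3 were higher, with a median of -0.20. FKBP14, a prolyl isomerase that assists collagen folding, and SEC24D, a coat protein of the vesicles that carry procollagen, fell with log2 fold changes of -1.43 and -0.93 (edgeR FDR = 2.01e-12 and 2.72e-12). MIA2, which helps load bulky cargo for export, rose by 1.98 (edgeR FDR = 4.57e-17) and SERPINH1, the collagen chaperone HSP47, rose by 0.31 (edgeR FDR = 0.000198) on the log2 scale. Of the 10 genes for procollagen processing, 5 were lower and 2 were higher, with a median of -0.28. ADAMTS2, which removes the N-propeptide, fell from 5.1 ± 0.496 to 0.674 ± 0.474 CPM (SD, n = 2 each) with a fitted log2 change of -2.48 (edgeR FDR = 8.67e-07). ADAMTS2 had 1 and 17 counts after VHL restoration and entered the test only through the control libraries, and without 786-O-VHL replicate 2 the fitted value was -3.87. ADAMTS14, a protease of the same activity, rose from 1.3 ± 0.517 to 5.93 ± 1.19 CPM (SD, n = 2 each) with a fitted log2 change of 2.24 (edgeR FDR = 3.35e-07). PCOLCE2, an enhancer of C-propeptide removal, had a log2 fold change of -1.22 (edgeR FDR = 2.09e-08), and BMP1, the protease that removes the C-propeptide and activates LOX, one of 0.25 (edgeR FDR = 0.00155, and 0.0975 without the shallower control library).

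Among the substrates and extracellular partners, some genes rose and others fell. Of 13 basement membrane and other collagens tested, 8 were higher and 4 were lower, where 32.6% and 31.9% of all genes tested were, with a median log2 fold change of 0.51. COL4A5 and COL17A1 rose most, by 1.14 and 1.05 on the log2 scale (edgeR FDR = 5.21e-06 and 0.00139; for COL17A1 0.119 without 786-O-VHL replicate 2), and COL13A1 and COL8A1 fell most, with -1.11 and -0.89 (edgeR FDR = 8.11e-08 and 3.74e-11). COL4A1 and COL4A2, the main chains of type IV collagen, are named because of their values and not by the rule for the lists, and they rose from 368 ± 8.02 to 736 ± 11.5 CPM and from 582 ± 1.99 to 1028 ± 28.3 CPM (SD, n = 2 each, edgeR FDR = 2.38e-14 and 1.15e-12). COL6A3 and COL7A1, also named because of their values, fell from 2007 ± 15.5 to 1560 ± 5.96 CPM and from 1063 ± 3.95 to 736 ± 25.8 CPM (SD, n = 2 each, edgeR FDR = 3.39e-06 and 8.6e-09). Of the fibrillar collagens, 4 of 11 were analysed. Among them COL5A1 fell by 2.15 on the log2 scale (edgeR FDR = 1.59e-13) and COL5A2 rose by 0.87 (edgeR FDR = 0.00922). COL5A2 had 51 and 36 counts in the control libraries, against 13 and 74 with VHL restored. DESeq2 did not make that call (DESeq2 FDR = 0.118), and the log2 fold change of COL5A2 moved to 1.61 after thinning. COL1A1, a main substrate of the prolyl hydroxylases in connective tissue, was at 6.04 ± 0.458 and 6.83 ± 0.418 CPM (SD, n = 2 each) and was not called (edgeR FDR = 0.599). Of 5 cross-linking partners tested, 2 were higher and 2 were lower, with a median of 0.93. That median is the value of 1 gene with 7 counts in 786-O-VHL replicate 1, which was not called (edgeR FDR = 0.0522). Besides LOXL3, FN1, the fibronectin on which collagen and lysyl oxidases assemble, rose from 7185 ± 175 to 14649 ± 1204 CPM (SD, n = 2 each, edgeR FDR = 2.32e-14), while EFEMP2, which aids LOX in elastic fibers, fell by 0.50 on the log2 scale (edgeR FDR = 9.37e-07). LTBP4, a matrix protein that binds latent TGF-beta, had a log2 fold change of -0.21 (edgeR FDR = 0.00662), and with library totals alone it was -0.08 and did not pass. Leaving out any of 786-O-VHL replicate 2, the deeper or the shallower control library also ended that call, at log2 fold changes between -0.24 and -0.13.

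Among the genes of cofactor supply, of the 5 copper genes, 1 was higher and 1 was lower, with a median of 0.12. ATOX1, the copper chaperone of the secretory pathway pumps, fell by 0.49 on the log2 scale (edgeR FDR = 0.00023). The pump ATP7A, which delivers copper to lysyl oxidases, had a log2 fold change of 0.34 (edgeR FDR = 0.0394). ATP7A did not pass with DESeq2 (DESeq2 FDR = 0.294) or after thinning, where it was at 0.09 (edgeR FDR = 0.755). With 1 library left out it was between 0.22 and 0.42. Of the 6 genes for ascorbate and iron supply, 3 were lower and 2 were higher, with a median of -0.11. TFRC, the transferrin receptor, and SLC2A1, a transporter of glucose and of oxidized ascorbate, had log2 fold changes of -2.06 and -1.68 (edgeR FDR = 3.09e-20 and 1.7e-18). SLC23A1, an ascorbate transporter, rose from 0.627 ± 0.617 to 4.7 ± 0.409 CPM (SD, n = 2 each) with a fitted log2 change of 3.09 (edgeR FDR = 4.88e-07). SLC23A1 had 4 and 16 counts in the control libraries and met the filter only through 786-O-VHL. Its fitted log2 change was 2.17 without the deeper control library and 4.60 without the shallower one. SLC2A3, a transporter of the same family as SLC2A1, had a log2 fold change of 0.32 (edgeR FDR = 0.00425), which without 786-O-VHL replicate 2 was 0.10 and without the deeper control library 0.25, neither past the threshold. With DESeq2 the log2 fold change of SLC2A3 was 0.27 and did not pass (DESeq2 FDR = 0.147). Over all lists, 27 of the 64 genes tested were lower and 22 were higher, beside 31.9% and 32.6% of all genes tested, with a median of 0.05. The lists were written with earlier results of these data known.

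**Figure D4:**
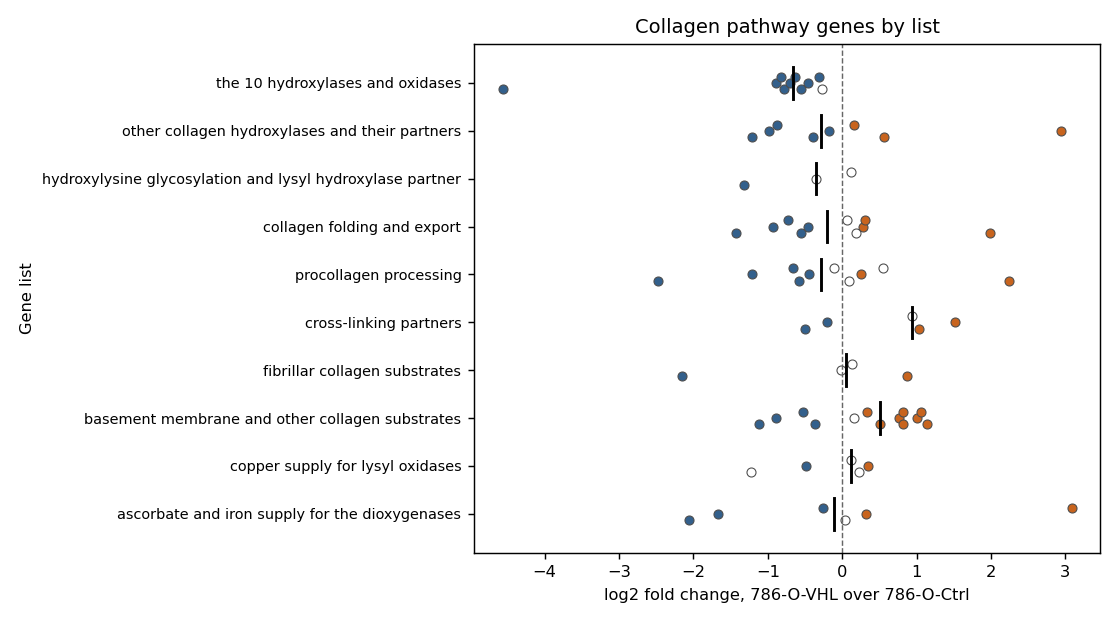
Log2 fold change of 786-O-VHL over 786-O-Ctrl (x axis) for each tested gene of the 10 hydroxylases and oxidases and of the 9 pathway lists (y axis), with blue for lower and orange for higher at an edgeR FDR under 0.05, open circles for genes not called and vertical bars for the median; points are offset vertically for visibility, and LOXL4 is drawn at its fitted value of -4.57, which depends on the prior count. The median of the 10 genes lies at -0.67 and that of the basement membrane and other collagens at 0.51, with members on both sides of 0 in every list but the first.

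The genes whose 4 library values were most like those of PLOD2, by the Euclidean distance of log2 CPM centered on each gene's mean, were WDR91 at 0.00765, ZNF318 at 0.022 and ME1 at 0.0323, against a median distance of 0.671 over 10729 other genes with at least 10 counts in each library. Those most like P4HA1 were MYO1C at 0.0172, RPN2 at 0.0215 and USP1 at 0.0278, against a median of 0.728. With 4 libraries in 2 groups, genes with a difference of like size between the groups lie near each other by this measure, and the log2 fold changes of the genes near PLOD2 were between -0.60 and -0.58.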

How the data were processed

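RNA-seq covered 2 libraries per group. The authors aligned the reads to hg19 (the submitters' processing notes name CASAVA and STAR) and deposited raw counts per gene without normalization. Which program counted the reads, on which annotation and whether by strand, is not given in the sources used. The authors calculated differential expression with DESeq2. Both 786-O-Ctrl columns carry the same replicate number and were used as replicates of the group.

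For the main test (R 4.3.3, edgeR 4.0.16), filterByExpr at a minimum count of 10 left 12335 genes and removed 577, libraries were scaled by TMM, and the quasi-likelihood F test with the group as the only term gave p-values that were adjusted by Benjamini-Hochberg (FDR). A negative log2 fold change means lower after VHL restoration, and its standard error was derived from the F statistic. The common dispersion was 0.00186. Coordinates and exon lengths are from GENCODE on GRCh37, in which the identifiers of all genes named from the lists were found. COL1A1, COL4A1, COL4A2, COL6A3 and COL7A1 were named after their values were seen, and the other genes named are the 10 members, VHL, at most 2 per direction of each list with the largest fold change at FDR under 0.05, and the 3 genes nearest to PLOD2 and to P4HA1. The members and lists were chosen with earlier results of these data known. Alternatives were DESeq2 1.42.0, limma-voom 3.58.1, RLE size factors, library totals alone, no filter, at least 10 counts in every library, thinning to the shallowest library, each library left out, a replicate block, a prior count of 2 and, added after seeing the data, canonical transcript lengths. The scripts were tested on simulated data.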

Additional observations from a re-analysis of the deposited data

How the results depend on the processing

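Each of the 9 called genes stayed lower at an edgeR, DESeq2 or limma-voom FDR under 0.05 under every alternative in which it could be tested, and LOX was called under none (FDR between 0.126 and 0.845). LOXL4 was not tested with at least 10 counts in every library or after thinning, where 8 genes were called. The count past 4-fold with FDR under 0.01 was then 0 of the 10, and 232 and 335 over all genes, beside 550. With each library left out in turn it was between 0 and 1 of the 10, with 0 without 786-O-VHL replicate 2. Library totals alone moved the median of all genes by 0.13 on the log2 scale, with 5077 genes higher and 3097 lower beside 4017 and 3939, and 9 of the 10 genes were still lower, LOXL2 with a log2 fold change of -0.18. With the length of the canonical transcript the mean share of P4HA1 in the sum of P4HA1 and P4HA2 was 46.8% in the control libraries and 48.03% after VHL restoration (63.5% and 64.6% with joined exons), that of PLOD2 in its family 39.7% and 42.3% (24.2% and 26.4%), and that of LOXL2 in its family 92.5% and 94.2% (91.9% and 93.7%). With the replicate number as a block, and the deeper control library taken as number 1 as the study orders them, 9 of the 10 genes were lower, and 3824 genes were higher and 3778 lower. Deviations of same-numbered libraries correlated by -0.00721 over 12335 genes and by -0.0421 over the 6167 genes above the median level. With 2 libraries per group, these values cannot show whether same-numbered libraries were prepared together. Of the genes named from the lists, LTBP4, ATP7A, COL5A2, COL17A1, SLC2A3, BMP1 and LOXL3 lost their call under at least 1 alternative (ATP7A under the block, FDR = 0.121), and the cause was not tested. LOX, LOXL4, P4HA3, ADAMTS2, ADAMTS14, COL1A1, COL5A2, COL17A1 and SLC23A1 had at most 23 counts in 786-O-VHL replicate 1, which bounds their precision.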
